A study of Mus musculus with 8 samples.

Results

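The Serpina clade secreted inhibitors described here are 10 genes of mouse liver, Serpina1a, Serpina1b, Serpina1c, Serpina1d, Serpina1e, Serpina3k, Serpina3m, Serpina3n, Serpina6 and Serpina10. They were chosen by gene symbol, and all 10 were among the 11784 genes of the deposited table. Livers came from male C57BL/6J mice that began an amino acid defined diet at 9 weeks of age, kept it for 4 months and were fasted overnight for about 16 hours before collection. The Control diet (TD.140711) was given to 4 mice, F129, F2212, F7111 and F2110. The Low AA diet (TD.140712), in which a smaller share of calories came from amino acids and a larger share from carbohydrate, was given to 4 mice, H1126, H828, H817 and H1315. Poly(A) RNA of each liver was sequenced, and the deposited value of a gene in a mouse is a read count that was scaled between mice and rounded, here called a scaled read count. Each value was taken as log2(value + 1), all 11784 genes were fitted together with limma, and a gene was called at a Benjamini-Hochberg adjusted p under 0.05. The log2 difference given for a gene, its log2 fold change, is Low AA minus Control, so a value above 0 means more transcript in Low AA mice.

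The proteins of these genes belong to the serpin family and are secreted, and most of them trap proteases with a bait. A loop near the carboxyl end, the reactive centre loop, is offered to the protease as a substrate, and its sequence decides which protease is caught. Hepatocytes are the main source of the Serpina proteins of plasma. The Serpina1 genes encode forms of alpha-1-antitrypsin, which in humans comes from a single active gene and inhibits neutrophil elastase. This mouse strain has a row of near-identical copies, which differ in the loop, and their target proteases were not measured. Serpina3k, Serpina3m and Serpina3n belong to a group expanded in mice from the gene of alpha-1-antichymotrypsin, and Serpina3n is induced in the acute-phase response. Serpina6 encodes corticosteroid-binding globulin, a serpin that carries glucocorticoids and inhibits no protease. Serpina10 encodes the protein Z-dependent inhibitor of coagulation factor X in its active form.

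Among the 10 members, Serpina1e was the only one called between the diets, and it was lower on the Low AA diet. Its mean was 2.84 times as high in the Control mice as in the Low AA mice, while the other 4 Serpina1 copies had log2 differences between -0.13 and 0.03. Over all genes 0.399% were called in either direction and 0.297% were called lower. Serpina1e was also the only member whose diets did not overlap, where 6.81% of all genes did not overlap, with 3.26% lying above Control and 3.55% below it. The median log2 difference was -0.06 over the members and 0.0023 over all genes.

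The members lie on chromosome 12 of mm10 (GRCm38) between bases 103614786 and 104414329, as GENCODE places them, in a cluster of about 800 kb that holds only 5 other genes of the table, all of them serpin genes or a serpin pseudogene. The 5 Serpina1 copies span 231 kb of it on the minus strand. The annotated Serpina1b gene overlaps that of Serpina1d, and that of Serpina3m overlaps Serpina3k, each pair on the same strand, so reads of these pairs may also be hard to assign. The coding sequences of the 5 Serpina1 copies had equal length, 1239 bases, and were 96.3% to 98.5% identical in pairs. A stretch that starts at the hinge of the reactive centre loop is shown for each copy. It is shown because each copy held a larger share of bases of its own there than in the rest of its coding sequence. Such bases can tell reads apart. The stretch lies in the last of 5 exons, is entirely coding, and was read from the GENCODE transcripts. It starts at the codons of the conserved hinge, which a search of the translated sequence found. Its length was fixed at 75 bases, so it may reach past the end of the loop. Capitals mark the bases at which the copies are not all the same.
Serpina1a, chr12:103853756-103853830, minus strand: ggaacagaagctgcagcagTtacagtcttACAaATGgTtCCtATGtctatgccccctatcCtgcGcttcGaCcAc
Serpina1b, chr12:103728323-103728397, minus strand: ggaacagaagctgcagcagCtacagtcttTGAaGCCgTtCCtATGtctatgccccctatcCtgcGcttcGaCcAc
Serpina1c, chr12:103895093-103895167, minus strand: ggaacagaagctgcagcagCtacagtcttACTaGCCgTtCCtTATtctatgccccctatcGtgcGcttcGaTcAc
Serpina1d, chr12:103763761-103763835, minus strand: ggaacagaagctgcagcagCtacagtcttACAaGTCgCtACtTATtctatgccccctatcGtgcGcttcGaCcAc
Serpina1e, chr12:103947099-103947173, minus strand: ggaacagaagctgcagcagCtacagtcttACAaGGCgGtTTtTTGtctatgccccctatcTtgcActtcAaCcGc

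In these 75 bases, 18 positions varied among the copies. Serpina1e carried 8 bases that no other copy had at the same position, 10.7% of the stretch, against 1.37% of the rest of its coding sequence. The other copies had 2 or 3 such bases each. Serpina1e differed from each other copy at 10 to 12 of the 75 positions, and the other copies differed among themselves at 5 to 10.

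How far reads can be told apart was measured on the annotated transcripts. Of all windows of 100 bases in the longest Serpina1e transcript, 85.2% occurred in no transcript of another gene, the others being shared with Serpina1a to Serpina1d or the annotated gene Gm8893. The share was 79.4% for Serpina1b, 70.7% for Serpina1d, 50.1% for Serpina1a and 41.5% for Serpina1c. Serpina1a and Serpina1c were the least separable pair, with 58.0% of the windows of Serpina1c also present in Serpina1a. Within the coding sequence alone, 80.9% of the Serpina1e windows were absent from the other 4 copies, the highest share of the 5. Serpina3k and Serpina3m shared few windows (95.1% and 93.9% private), Serpina3n had 99.8% private, and Serpina6 and Serpina10 shared none. The values of Serpina1a to Serpina1d in particular are therefore uncertain as single genes, since how shared reads were assigned is not given in the sources used here, beyond the name of a program (RSEM) that divides such reads by estimation.

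Serpina1e had 119919, 102253, 146819 and 97955 scaled read counts in Control mice F129, F2212, F7111 and F2110. In Low AA mice H1126, H828, H817 and H1315 it had 40367, 24869, 48443 and 50875. Every Low AA mouse lay below every Control mouse. The means were 116736 ± 22193 on the Control diet and 41139 ± 11740 on the Low AA diet (SD, n = 4 each), a log2 difference of -1.54 with a standard error of 0.23, a 95% interval of -2.04 to -1.04 and an adjusted p of 0.0212 by limma. By unadjusted p it was gene 23 of 11784. The call did not hold in every fit that left out a mouse. Without H1126, H817, F129 or F7111 the adjusted p by limma was 0.0712, 0.0551, 0.0639 and 0.0505, while the log2 difference stayed between -1.66 and -1.31 with any mouse left out. In whole liver, fewer cells that make a transcript and less transcript per cell cannot be told apart.

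**Figure D1:**
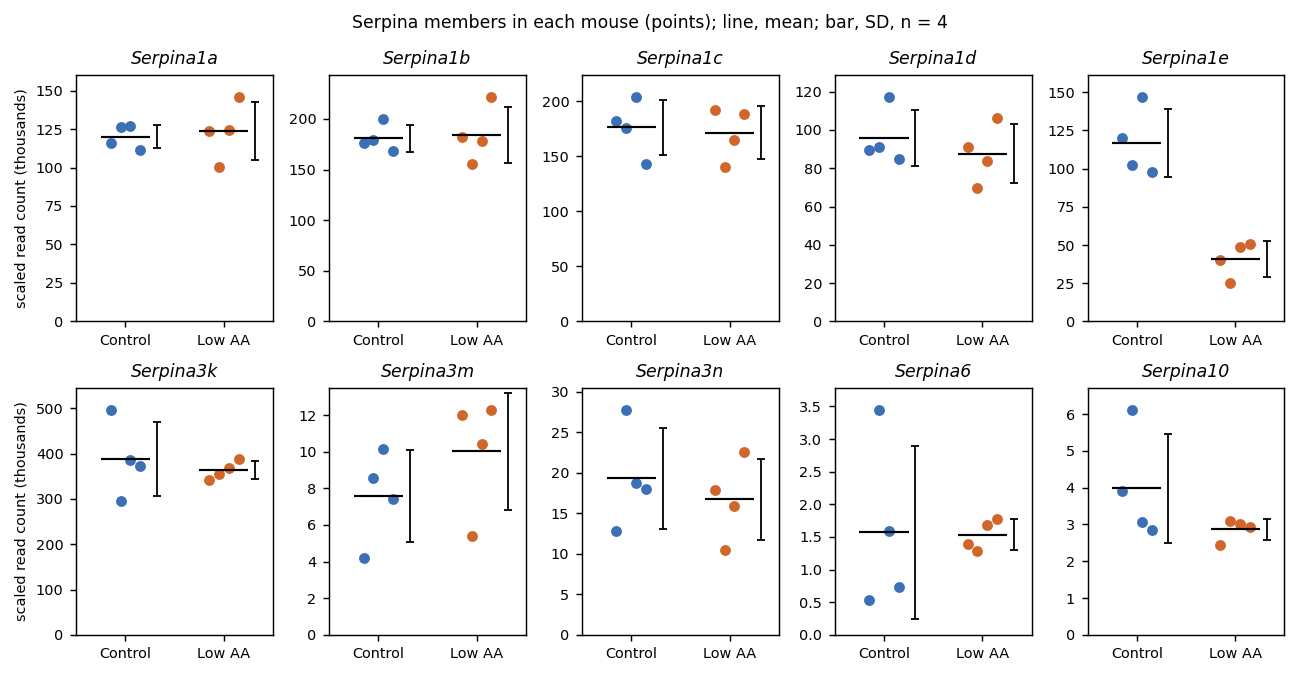
Scaled read counts (linear axes from 0) of the 10 members in each of the 8 mice. Points are mice, horizontal lines are means and vertical bars are SD (n = 4 per diet). Serpina1e is the only panel in which the Control points, from 97955 to 146819, and the Low AA points, from 24869 to 50875, do not overlap.

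The other copies of alpha-1-antitrypsin were close to level. Serpina1a had 111464 to 126721 scaled read counts under Control and 100165 to 145806 under Low AA, a log2 difference of 0.03 (95% interval -0.27 to 0.33, adjusted p by limma = 0.956). Serpina1b had 168627 to 200082 and 155105 to 221737, a log2 difference of 0.02 (95% interval -0.29 to 0.33, adjusted p by limma = 0.983). In both genes the Low AA range enclosed the Control range. Serpina1c had 143378 to 204053 and 140667 to 192185, a log2 difference of -0.04 (95% interval -0.38 to 0.31, adjusted p by limma = 0.953). Serpina1d had 84858 to 117222 and 69436 to 106473, a log2 difference of -0.13 (95% interval -0.48 to 0.22, adjusted p by limma = 0.813). Taken as ratios of Low AA to Control, the intervals ran from 0.715 to 1.16 in Serpina1d and stayed between 0.767 and 1.26 in the other copies. None of the 4 intervals reached that of Serpina1e, which as a ratio ran from 0.243 to 0.488, though the difference between copies was not tested.

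The values were also summed over the 5 copies. This sum does not change with how reads were divided among the copies, though shared reads given to Gm8893 or left out would alter it. The Control mice had sums of 683312, 675228, 794897 and 606282 scaled read counts and the Low AA mice 629487, 490242, 599688 and 713456. The diets overlapped. The sum was 689930 ± 78049 on the Control diet and 608218 ± 92229 on the Low AA diet (SD, n = 4 each), a log2 difference of -0.19 for which no test was made. Of the difference between these means, 81712 scaled read counts, Serpina1e accounted for 75598 and the other 4 copies together for 6114. The difference in the sum was about as large as the SD between mice of a diet.

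The share of Serpina1e in the summed Serpina1 signal was 17.5%, 15.1%, 18.5% and 16.2% in F129, F2212, F7111 and F2110, and 6.41%, 5.07%, 8.08% and 7.13% in H1126, H828, H817 and H1315. The mean share was 16.8% ± 1.47 on the Control diet and 6.67% ± 1.27 on the Low AA diet (SD, n = 4 each), without overlap. Shares add up to the whole, so a lower share of Serpina1e fixes a higher share of the other copies together. Serpina1a had a mean share of 17.5% and 20.3%, Serpina1b of 26.3% and 30.3%, Serpina1c of 25.5% and 28.3%, and Serpina1d of 13.8% and 14.4% on the Control and Low AA diets. The diets overlapped in the shares of Serpina1c and Serpina1d and not in those of Serpina1a and Serpina1b.

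**Figure D2:**
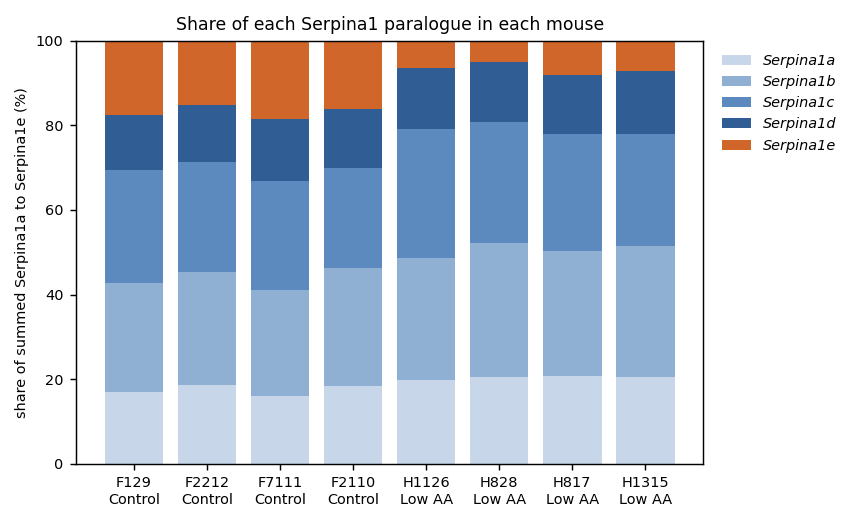
Share of each Serpina1 copy in the summed Serpina1a to Serpina1e value (percent, bars add up to 100) in each mouse, Control mice on the left and Low AA mice on the right. The Serpina1e segment at the top spans 15.1% to 18.5% under Control and 5.07% to 8.08% under Low AA.

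Within a diet, Serpina1e largely followed its neighbours. Mouse F7111 had the highest value of Serpina1e and of each other Serpina1 copy among the Control mice, and F2110 the lowest of each. Mouse H828 had the lowest value of each of the 5 copies among the Low AA mice. In H817, Serpina1e lay 0.29 above its diet's mean in log2, while Serpina1a to Serpina1d lay at 0.02, -0.04, -0.04 and -0.05. Over the 8 mice, the Pearson correlation of log2 values was 0.75 to 0.94 in the 6 pairs among Serpina1a to Serpina1d, and 0.23 to 0.61 between Serpina1e and each of them. The Spearman correlations were 0.69 to 0.93 and 0.29 to 0.62. After each diet's mean was subtracted, the latter range was 0.78 to 0.86. These are descriptions over 8 mice, in genes that may share reads and libraries.

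**Figure D3:**
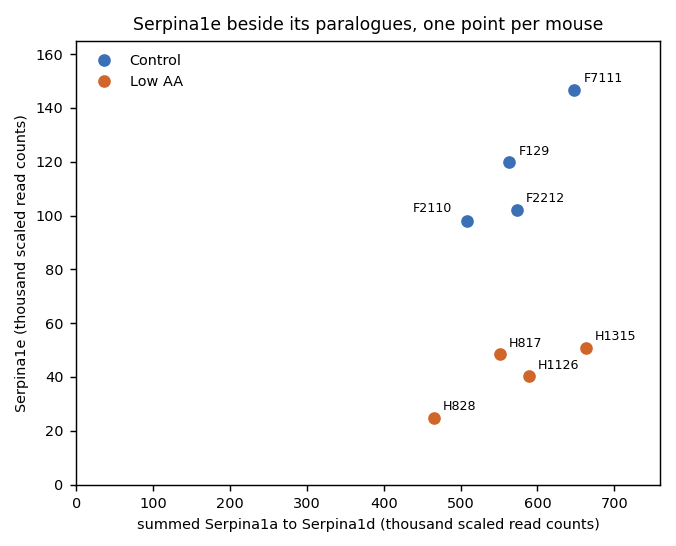
Serpina1e against the sum of Serpina1a to Serpina1d in each mouse, both in scaled read counts with linear axes from 0. The sum spans 508327 to 648078 under Control and 465373 to 662581 under Low AA, while all Low AA points lie lower on the Serpina1e axis than all Control points.

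A sequence near the start of the Serpina1 genes is shown, found by a search for what all 5 copies hold. That Serpina1e, which was called, shares it with the 4 copies that were not was fixed by this search. The rest of the sequence around the starts was not compared. In the RefSeq promoter windows of GRCm38, which cover 250 bases before and 50 after a gene's start, the longest run found in all 5 copies had 59 bases, and no other window of the 32851 in the table held it. It is printed in lower case throughout, since no base differs between the copies.
Serpina1e, chr12:103956956-103957014, minus strand: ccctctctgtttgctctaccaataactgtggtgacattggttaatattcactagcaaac

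The run began 60 bases upstream of the RefSeq start in Serpina1a, 65 in Serpina1b, 66 in Serpina1c, 55 in Serpina1d and 117 in Serpina1e, whose RefSeq start lies further downstream of it. In Serpina1d the run reached past the RefSeq start, and in the other copies it ended before it. In GENCODE the run of Serpina1e lies inside its annotated gene, which starts further upstream, and the same holds for Serpina1b. In Serpina1a, Serpina1c and Serpina1d the run lies upstream of the copy's own annotated gene. A shared run is a match of letters and shows no binding. Serpina3n, the other member with a window, did not hold it.

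Of the Serpina3 members, none was called. Serpina3k, which encodes a kallikrein-binding protein, had rank 3 among all 11784 genes by mean scaled read count. It had 496045, 296645, 385599 and 373855 scaled read counts in F129, F2212, F7111 and F2110, and 342352, 354742, 368286 and 387986 in H1126, H828, H817 and H1315. The Low AA mice all lay inside the Control range. The log2 difference was -0.07 (95% interval -0.45 to 0.30, adjusted p by limma = 0.915). Serpina3k was steady on the Low AA diet, with a coefficient of variation of 5.38%, against 21.2% on the Control diet, a difference in spread that was not tested.

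Serpina3m had 4191, 8580, 10145 and 7393 scaled read counts in the same order of Control mice, and 12022, 5373, 10400 and 12266 in the Low AA mice. The 3 highest values were those of Low AA mice, but H828 lay below 3 of the 4 Control mice. The log2 difference was 0.40 (95% interval -0.29 to 1.09, adjusted p by limma = 0.694), and it was 0.14 without F129 and 0.68 without H828. Serpina3n, which can inhibit granzyme B, had 12816, 27738, 18700 and 18038 in the Control mice and 17935, 10519, 15925 and 22609 in the Low AA mice. The diets overlapped widely. The log2 difference was -0.20 (95% interval -0.78 to 0.37, adjusted p by limma = 0.828) and -0.01 without F2212.

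Mouse F2212, which held the highest Serpina3n value of the 8 mice, stood apart from the other mice in genes of the acute-phase response. It had 57733 scaled read counts of Saa1, a serum amyloid gene, against 1068, 1892 and 2818 in the other Control mice. The Low AA mice had 68 to 770, so Saa1 did not overlap between the diets, also without F2212. Its log2 difference over all 8 mice was -3.49 (adjusted p by limma = 0.261). Summed over 23 acute-phase genes, all of them measured, the level was 461599 to 756964 under Control, with F2212 the highest, and 453899 to 571175 under Low AA. The same mouse had 36587 of the pancreas gene Cela1, against 130 to 288 in the others, and Cela1 was the only one of 11 acinar markers in the table. Of 8 neutrophil markers only S100a9 was measured, with 130 in F2212 and 19 to 51 in the other mice. The part of these in the values of Serpina3n was not tested. In every gene of the table the third highest mouse had at least 28, so a marker high in F2212 alone may have no row. Hepatocyte markers were all measured, 8 of 8, with sums of 2301533 to 2682764 under Control and 2569825 to 2756640 under Low AA. Markers of other liver cells leaned in part one way, with none called. All 4 measured cholangiocyte markers lay below 0 (median log2 difference -0.62, sums 1124 to 2265 under Control and 826 to 1316 under Low AA), as did 5 of 6 erythroid markers (median -0.49, sums 7768 to 30071 and 10093 to 14931) and 6 of 8 stellate cell markers (median -0.16, sums 7976 to 10367 and 8223 to 10352). Among the latter the collagen gene Col1a1 had -1.07 without overlap (adjusted p by limma = 0.148). All 11 measured Kupffer cell and macrophage markers lay above 0 (median 0.21, sums 9960 to 15397 and 10954 to 15113), and 6 of 8 endothelial markers did (median 0.06). The part of these in the members' values was not tested.

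Serpina6, the carrier of glucocorticoids, had 531, 3442, 1589 and 732 scaled read counts in F129, F2212, F7111 and F2110, and 1396, 1283, 1687 and 1775 in H1126, H828, H817 and H1315. The Control mice differed among themselves 6.48-fold and the Low AA mice 1.38-fold, with the Low AA values inside the Control range. The means were nearly equal, 1574 ± 1327 and 1535 ± 233 (SD, n = 4 each), while the log2 difference was 0.33 (95% interval -0.72 to 1.39, adjusted p by limma = 0.845). That value was 0.84 without F2212 and -0.06 without F129, so single Control mice set both its size and its sign.

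Serpina10, which acts with protein Z, had 3906, 6107, 3059 and 2845 scaled read counts in the Control mice and 2445, 3083, 3009 and 2935 in the Low AA mice. After Serpina1e it had the smallest unadjusted p of the members. The log2 difference was -0.41 (95% interval -0.88 to 0.06, adjusted p by limma = 0.505), and -0.18 without F2212, the mouse with the highest value.

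**Figure D4:**
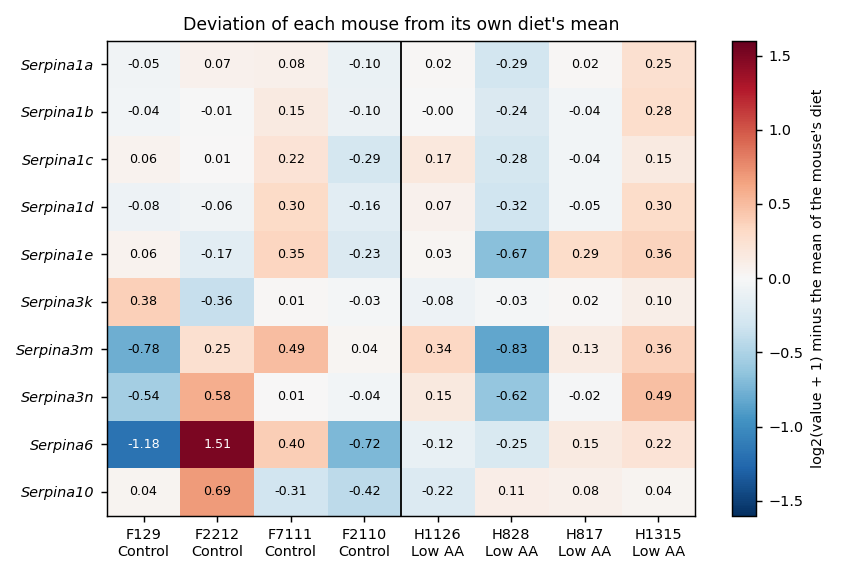
Deviation of each mouse from the mean of its own diet, as log2(value + 1), for the 10 members (rows) in the 8 mice (columns); red is above and blue below the diet's mean. F129 and F2212 deviate in opposite directions in Serpina3k, Serpina3m, Serpina3n and Serpina6, with Serpina6 at -1.18 and 1.51, and H828 is low in all 5 Serpina1 copies, in Serpina3m and in Serpina3n.

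F129 and F2212 marked the ends of the Control range for Serpina3k, Serpina3n and Serpina6. In F129, Serpina3k was highest and the other 2 were lowest, and in F2212 the order was turned around. Over the 8 mice the Pearson correlation of Serpina3k with Serpina6 was -0.81 and the Spearman rank correlation -0.38, with F129 and F2212 at opposite ends of both genes. For Serpina3m with Serpina3n these were 0.66 and 0.50. All are descriptions.

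Levels of different genes were compared per kb of the longest annotated transcript. On the Control diet the order of mean scaled read counts per kb was Serpina3k (188642), Serpina1c (129573), Serpina1b (102766), Serpina1a (75918), Serpina1e (74118), Serpina1d (68684), Serpina3n (9362), Serpina3m (4567), Serpina10 (1138) and Serpina6 (980). The ranges of Serpina1a, Serpina1e and Serpina1d overlapped, as did those of Serpina3k with Serpina1c, Serpina1c with Serpina1b, and Serpina10 with Serpina6. On the Low AA diet Serpina1e was at 26120 per kb, below Serpina1d at 62895 and above Serpina3n at 8114, and overlapped neither. It thus moved from the level of Serpina1a and Serpina1d to a level of its own. The level of a gene with more than 1 transcript length depends on the length used.

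The 5 other genes of the table inside the cluster gave no call. Serpina12, which encodes the adipokine vaspin, had a log2 difference of -0.80 (95% interval -1.43 to -0.18, adjusted p by limma = 0.283). Serpina4-ps1, a pseudogene, had 39 to 291 scaled read counts under Control and 9 to 74 under Low AA, a log2 difference of -2.53 (adjusted p by limma = 0.160). The diets overlapped in both. Serpina11, next to Serpina1e, had 0.24, Serpina3f 0.27 and Serpina3g 0.22, all with intervals that held 0.

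**Figure D5:**
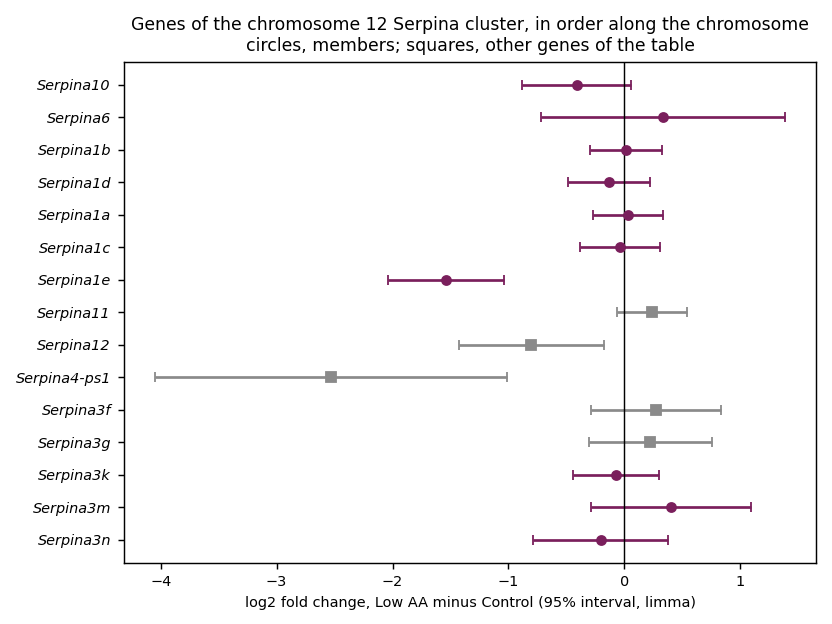
Log2 difference (Low AA minus Control) with its 95% interval from limma for the genes of the table in the chromosome 12 cluster, in their order along the chromosome. Circles are the 10 members and squares are the 5 other genes. Serpina1e, at -1.54 with an interval of -2.04 to -1.04, lies apart from its 4 Serpina1 neighbours, whose values run from -0.13 to 0.03.

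Other serpins were measured in 20 of 32 listed genes. Of these, 1 was called, with a median log2 difference of -0.04 over the list and 0.0023 over all genes. The called gene was Serpine2, which encodes protease nexin 1, an inhibitor of thrombin and plasminogen activators. It had 248, 190, 512 and 246 scaled read counts in the Control mice and 92, 103, 71 and 65 in the Low AA mice, a log2 difference of -1.76 (adjusted p by limma = 0.0368). Omitting each mouse in turn gave an adjusted p of 0.0215 to 0.125 by limma, and the call held in 2 of these 8 fits. Without a mean-variance trend it was 0.0564. Serpina7, the gene of thyroxine-binding globulin and a hormone carrier like Serpina6, had 127, 894, 218 and 101 in the Control mice and 1266, 1348, 1080 and 517 in the Low AA mice, with F2212 the one Control mouse inside the Low AA range. Its log2 difference was 2.14 (adjusted p by limma = 0.174), and 2.80 without F2212 (adjusted p by limma = 0.0114). Serpinc1, which encodes antithrombin, had a log2 difference of 0.02.

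The proteases and cofactors that serpins meet gave no call in 15 measured of 20 listed genes, with a median of -0.0017. Coagulation factor gene F11, a target of Serpina10, had a log2 difference of -0.54 (adjusted p by limma = 0.284), and Proz, its cofactor protein Z, had -0.18 (adjusted p by limma = 0.603). F10, the gene of the other coagulation factor that Serpina10 restrains, had 0.05. Hp and St14, the others with the smallest p, had -0.43 and -0.58 (adjusted p by limma = 0.454 and 0.530). Hp encodes no active protease and was also listed as an acute-phase gene, with its highest value, 173371, in F2212. Elane, the gene of neutrophil elastase, was not among the 15 measured, and a gene without a row may only lie below the level at which the table begins.

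Other secreted protease inhibitors were measured in 22 of 26 listed genes, none of them called, with a median of -0.0030. Among these, Wfdc2, Spint2 and Itih2 did not overlap between diets, with log2 differences of -1.56, -0.43 and 0.43 (adjusted p by limma = 0.112, 0.124 and 0.178). Over all genes 6.81% did not overlap. Plasma carriers were measured in 11 of 13 listed genes and gave no call, with a median of 0.09. After Serpina7 the smallest p were those of Afm, which encodes the vitamin E carrier afamin, at 0.49, and Igfbp2, which encodes an insulin-like growth factor binding protein, at 0.38 (adjusted p by limma = 0.258 and 0.369).

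Genes that handle the hormone carried by the Serpina6 product were measured in 13 of 14 listed, with none called and a median of 0.10. Sgk1, a glucocorticoid-responsive kinase, came closest, with 902 ± 287 scaled read counts on the Control diet and 1985 ± 462 on the Low AA diet (SD, n = 4 each) and a log2 difference of 1.16 (adjusted p by limma = 0.0611). It passed without F2110 (adjusted p by limma = 0.0168). Hsd11b1, which regenerates active glucocorticoid, had 0.40 (adjusted p by limma = 0.160). Srd5a1, a steroid reductase gene, had -0.44 (adjusted p by limma = 0.407). The receptor gene Nr3c1 had 0.10.

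Newly made serpins leave the cell through the endoplasmic reticulum, where misfolded alpha-1-antitrypsin is held back and degraded. All 26 listed genes of export and quality control were measured, and none was called. Of these, 18 had a log2 difference under 0, with a median of -0.11. Os9, a lectin that passes misfolded glycoproteins on for degradation, had 8684 ± 839 scaled read counts on the Control diet and 6147 ± 531 on the Low AA diet (SD, n = 4 each), without overlap, and a log2 difference of -0.50 (adjusted p by limma = 0.0847). Mia3, needed to load large cargo for export, had -0.35 and Derl2, a component of the degradation channel, had -0.37 (adjusted p by limma = 0.308 and 0.321).

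All 22 listed transcription factors and signal inputs of hepatocyte serpin genes were measured, and none was called, with a median of 0.07. Stat5a had the smallest unadjusted p of them, with a log2 difference of 0.52 (adjusted p by limma = 0.266). Hnf4a had 0.08, Stat5b 0.24 and Ghr, the growth hormone receptor gene, -0.28. The 23 acute-phase genes gave no call either, with a median of -0.19. Orm1, which encodes alpha-1-acid glycoprotein, had a log2 difference of -2.06 without overlap (adjusted p by limma = 0.0908), and passed without H1315 (adjusted p by limma = 0.0415). Saa4 had -1.29 and Apcs, the gene of serum amyloid P, had 1.03 (adjusted p by limma = 0.0915 and 0.192). At an unadjusted p under 0.05, 1 of the 10 members passed, Serpina1e, where 11.8% of all genes did.

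The genes outside the members whose log2 values were most like a member's over the 8 mice were found by Pearson correlation, as a description in libraries that share preparation. For Serpina1e these were the carboxylesterase gene Ces2c (r = 0.98), the cytochrome P450 gene Cyp4f13 (r = 0.97) and Ces2a (r = 0.97), chosen after the values of Serpina1e were seen. Ces2c, itself called lower (adjusted p by limma = 0.0368), had 334 to 622 scaled read counts under Control and 84 to 181 under Low AA. Cyp4f13 had 1327 to 1579 and 993 to 1171, and Ces2a 2809 to 3992 and 1678 to 2396. None of these genes overlapped between the diets, as Serpina1e did not, so their correlations include that split. No correlation within a diet was computed for them. For the summed Serpina1 copies they were Cyp2c50, Sucnr1 and Ndrg2 (r = 0.96, 0.95 and 0.95), and for Serpina3k Alg12, Selenbp2 and Becn1 (r = 0.95, 0.92 and 0.91). Alg12, Selenbp2 and Becn1 were each highest in F129, and their Spearman correlations with Serpina3k were 0.63, 0.86 and 0.78. Selenbp2 had 3759 scaled read counts in F129 and 307 to 1189 in the other mice, so its likeness to Serpina3k followed F129. For Serpina3m they were Grn, Pipox and Klhl25 (r = 0.98, 0.94 and 0.94), and for Serpina3n Tcn2, Ppt2 and Zkscan6 (r = 0.98, 0.98 and 0.97). Those most like Serpina6 were Zfp639, Itih4 and 5830473C10Rik (r = 0.95, 0.95 and 0.94), of which Itih4 is an acute-phase gene with its highest value, 73704, in F2212. Those most like Serpina10 were Psmb10 and Gltpd2 (r = 0.97 and 0.97, Spearman 0.74 and 0.83). Both were highest in F2212, as was Serpina10.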

How the data were processed

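Liver RNA was measured in 4 Control and 4 Low AA mice. For 11784 genes the authors deposited a signal per mouse, a read count scaled between mice and rounded. In every gene the value of the third highest mouse was at least 28, so genes of low level are not in the table. The scaling was inferred from evenly spaced gaps and doublings among low whole numbers and factors of 0.902 to 1.11 were fitted, so the sums below are near the depth without giving it exactly. Scaled read counts summed to 28361406 to 29485422 per Control mouse and 27876664 to 30799385 per Low AA mouse. The submitters' processing notes name STAR 2.5.0a, RSEM 1.2.6 and build mm10. The authors' own fold changes and FDR in the same table were not used. The fit used limma 3.58.1 (R 4.3.3) and a mean-variance trend on log2(value + 1), with Benjamini-Hochberg adjustment over all genes and no further filter on low values. On simulated data, 94% of 200 genes changed by a log2 difference of 1 were called among 11784, and 15.5% of those changed by 0.5. The simulation gave every gene the same dispersion. These shares therefore do not hold for genes that vary more between mice, such as Serpina6 (coefficient of variation 84.4% on the Control diet).

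The members and lists were chosen with earlier results of these data known. Named were the members, the cluster's other genes, in each list called genes and the 3 smallest p, the 3 genes most like a member, and Saa1 and Cela1, which show the mouse that stands apart and were chosen with their values known. Listed genes outside that rule (Proz, F10, Nr3c1, Hnf4a, Serpinc1) were named as partners of members after values were seen. Some results under these rules are not reported here. Alternatives were other pseudocounts (0.1 and 5), scalings and moderation, the 8000 genes of highest mean, and each mouse left out. Older symbols were matched through RefSeq synonyms.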

Additional observations from a re-analysis of the deposited data

How the results depend on the processing

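Serpina1e was called under the 7 alternatives of pseudocount, gene filter, scaling and moderation, with a log2 difference of -1.54 to -1.53 and a limma adjusted p of 0.0136 to 0.0360. With a mouse left out it was called in 4 of 8 fits (log2 difference -1.66 to -1.31), so the number of members called ran from 0 to 1. The other members were called in no alternative. With a mouse left out, the log2 difference of Serpina1a ran from -0.0521 to 0.129, of Serpina1b from -0.0776 to 0.0943, of Serpina1c from -0.134 to 0.0534, of Serpina3k from -0.194 to 0.0537, of Serpina3n from -0.384 to 0.0010, of Serpina6 from -0.0615 to 0.837 and of Serpina3g from -0.0155 to 0.447, each with a change of sign. The summed Serpina1 value ran from -0.27 to -0.09. Over all genes, 47 were called, 19 among the 8000 genes of highest mean, 30 without a mean-variance trend, 132 at an adjusted p under 0.1, and 16 to 77 with a mouse left out, the highest without F2212. The cause of these changes was not tested. No paired analysis was possible because no mouse code occurs in both diets. Intervals give the uncertainty of the difference between diet means with 4 mice per diet, while SD gives the spread between mice. The scaled values do not give the exact depth.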
